A study of Mus musculus with 2 samples.

Results

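Zbtb16, Gata3, Il4, Il13 and Areg, 5 of the 32285 genes in the files, were followed through single γδ T cells of the mouse lung. The 5 genes were taken by symbol and described by the delta chain variable gene read in each cell and by the presence of Cxcr6 or Icos transcripts. Transcripts had been counted as unique molecular identifiers (UMIs) in 2 droplet libraries, to set Vγ1 cells that develop without Vγ4 and Vγ6 cells against the non-Vγ1 cells of normal mice. The WT library came from C57BL/6NCrl mice and held lung γδ T cells sorted without the Vγ1 chain. The KO library came from B6.Cg-Tcrgtm1lku(B6.Vg4-/-Vg6-/-) mice, in which the Vγ4 and Vγ6 chains are deleted, and held lung cells sorted with the Vγ1 chain. All animals were 5 to 7 weeks old and uninfected, both sexes were used in the study, and the number pooled in each library is not given in the sources used here. Each group had 1 library, so no difference below has a replicate check or a test. Sort, genotype, strain and library cannot be told apart. The mix of sexes differed between the libraries too, with Y-linked UMIs in 24.5% of WT and 0.467% of KO cells. All intervals are 95% intervals that cover counting error only.

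Zbtb16 encodes PLZF, a zinc finger transcription factor that drives the innate-like program of natural killer T cells and of the mouse γδ T cells that pair Vγ1 with a Vδ6.3 chain. Gata3 encodes a transcription factor needed for T cell development and for type 2 responses, in which interleukin-4 (Il4) and interleukin-13 (Il13) are secreted. Areg encodes amphiregulin, a ligand of the epidermal growth factor receptor that lymphocytes make in injured or inflamed tissue. Cxcr6 is a chemokine receptor of resident T cells, and Icos is a costimulatory receptor of activated T cells.

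The files went with the labels in part. Tcrg-V6 UMIs were found in 0 KO-labelled cells of every delta chain group, but Tcrg-V4 UMIs were found in 10.4% to 21.8% of them by group, against the label. The library is therefore called KO-labelled. Tcrg-V1 UMIs were read in 37.9% to 54.2% of KO-labelled cells by group. They were also read in up to 13.1% of WT cells by group, among them 9.57% of Trdv2-2 and 9.93% of Trdv5 cells, although that library was sorted without this chain. A T cell marker (Cd3e, Cd3g, Cd3d or Trdc) was read in 90.9% of the 2505 WT and 96.5% of the 6634 KO-labelled cells kept, whose median depth was 3288 and 3521 UMIs. Markers of another cell type, at least 2 of 1 type, were read in 4.35% and 1.70% of cells, and the summed stress gene level was 2137 and 1512 CPM (counts per 1000000 UMIs). Y-linked UMIs were read in 24.5% and 0.467% of cells, and 23 barcodes occurred in both libraries.

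A cell was placed in a delta chain group when it had UMIs of exactly 1 of Trdv1, Trdv2-2, Trdv4, Trdv5 and the Trav15-dv6 genes, whatever UMIs it had of the 8 other delta variable genes in the files. This placed 1533 WT and 3204 KO-labelled cells. In the WT library 732 cells carried Trdv4, 413 Trdv5, 324 Trdv2-2, 49 Trav15-dv6 and 15 Trdv1, and 87.7% of the Trdv4 cells also had Tcrg-V6 UMIs. In the KO-labelled library 1014 cells carried Trav15-dv6, 968 Trdv2-2, 644 Trdv1, 469 Trdv5 and 109 Trdv4. The other cells had no such UMI (713 WT and 2587 KO-labelled) or those of several groups (259 and 843).

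All these variable genes lie on chromosome 14 of GRCm38. The 4 Trav15-dv6 genes can be joined to alpha or delta chains, so that their UMIs do not by themselves show a delta chain. The last 60 bases of their V segments, from the GENCODE transcripts of GRCm38, are shown because Zbtb16 levels differed between the genes, and capitals mark differences from the first sequence.
Trav15-1-dv6-1: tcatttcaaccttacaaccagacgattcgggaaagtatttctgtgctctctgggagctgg
Trav15d-1-dv6d-1: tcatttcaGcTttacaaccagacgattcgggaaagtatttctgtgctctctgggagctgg
Trav15-2-dv6-2: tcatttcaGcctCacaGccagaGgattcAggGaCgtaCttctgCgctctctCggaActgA
Trav15d-2-dv6d-2: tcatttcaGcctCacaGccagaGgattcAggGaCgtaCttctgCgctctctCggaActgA
Over these bases Trav15-1-dv6-1 and Trav15d-1-dv6d-1 differed at 2 positions, Trav15-2-dv6-2 and Trav15d-2-dv6d-2 at 0, and members of different pairs at 12. Reads cannot be divided between genes of a pair from the files with certainty, and the pairs are therefore used below.

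Zbtb16 (ENSMUSG00000066687, chromosome 9, 48654297 to 48836222, minus strand of GRCm38, protein-coding) was read in both libraries and most in cells with Trdv4. Over all kept cells it had 1474 UMIs or 164 CPM (156 to 173) in WT and 5393 UMIs or 208 CPM (203 to 214) in the KO-labelled library. Set over WT on the log2 scale, the KO-labelled CPM was at 0.34 (0.26 to 0.43). With every cell weighted alike the ratio was 0.12. After each cell had been thinned to 2000 UMIs, a Zbtb16 UMI remained in 21.7% of WT (20.0 to 23.6) and in 23.5% of KO-labelled cells (22.4 to 24.6), against 32.4% and 35.4% without thinning. As background, of the cells that had markers of another type and no T cell marker UMI, 5 of 56 in WT and 1 of 30 in KO-labelled had a Zbtb16 UMI without thinning, at median depths of 2759.5 and 2302.5 UMIs.

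Zbtb16 differed between delta chain groups. Among the 8 combinations of group and library with at least 50 cells, it was highest in KO-labelled Trdv4 cells, at 355 CPM (301 to 416), and in WT Trdv4 cells, at 317 CPM (297 to 339). These 2 levels differed by a log2 ratio of 0.16, with an interval (-0.10 to 0.41) that held 0. KO-labelled Trav15-dv6 cells followed at 245 CPM (231 to 261), KO-labelled Trdv2-2 cells at 193 CPM and KO-labelled Trdv5 cells at 152 CPM. KO-labelled Trdv1 cells were at 115 CPM, WT Trdv5 cells at 80.5 CPM and WT Trdv2-2 cells at 58.0 CPM (44.9 to 73.8). Apart from the first pair, the interval of each ratio between neighbours in this order left out 0. After thinning, 43.0% of WT Trdv4, 40.0% of KO-labelled Trdv4 and 27.4% of KO-labelled Trav15-dv6 cells had a Zbtb16 UMI, against 9.28% of WT Trdv2-2 cells.

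**Figure D1:**
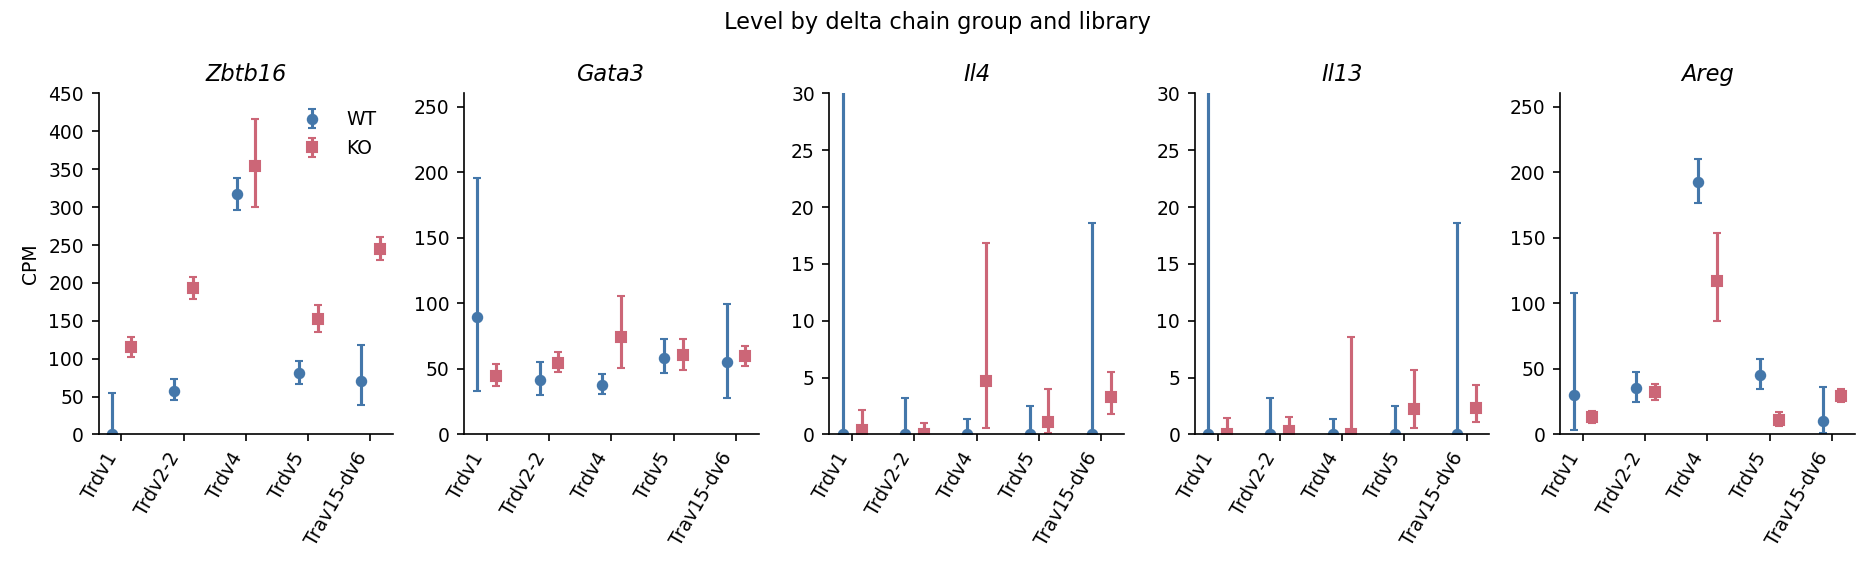
Level of each gene in CPM (y axes, which differ between panels) by delta chain group (x axis), with circles for the WT and squares for the KO library, 1 library each. Bars are exact Poisson intervals of the UMI sums, and those of the 15 WT Trdv1 cells are cut off for Il4 and Il13. Zbtb16 peaks in Trdv4 cells of both libraries and Areg in those of WT, while 1 cell held 39 of the 50 Areg UMIs of KO Trdv4 cells. Gata3 runs from 37.8 to 74.7 CPM in groups with at least 50 cells, with the 15 WT Trdv1 cells at 89.8 CPM (33.0 to 195). Il4 and Il13 are at 0 in every WT group.

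Within a delta chain group the libraries differed for Zbtb16 outside Trdv4. The log2 ratio, KO-labelled over WT, was 1.74 (1.37 to 2.12) in Trdv2-2 cells and 0.92 (0.60 to 1.24) in Trdv5 cells. In Trav15-dv6 cells it was 1.80 (1.04 to 2.67), from 14 UMIs in 49 WT cells. WT Trdv1 cells had 0 Zbtb16 UMIs in 15 cells, and against the floor of 3 UMIs the KO-labelled level was higher by a log2 ratio of at least 1.36. Trdv4 cells held 873 of the 1474 Zbtb16 UMIs of the WT library. In the WT library, Trdv4 cells were above all other single-delta cells by a log2 ratio of 2.20 (1.98 to 2.43), rank 122 of 9118 genes from the highest. A ratio of at least 1 or at most -1 with at least 30 UMIs is called higher or lower here. In this comparison 5.47% of genes were higher and 6.79% lower, and 2 of the 3 members with enough UMIs, Zbtb16 and Areg, were higher.

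Gata3 (ENSMUSG00000015619, chromosome 2, 9857078 to 9890034, minus strand, protein-coding) varied over a narrower range. It had 373 UMIs or 41.6 CPM (37.5 to 46.0) in WT and 1471 UMIs or 56.8 CPM (53.9 to 59.8) among KO-labelled cells, or 0.45 (0.28 to 0.62) as a log2 ratio. Over the 8 combinations it ranged from 37.8 CPM in WT Trdv4 cells to 74.7 CPM in KO-labelled Trdv4 cells. No pair of neighbours in the order differed beyond counting error. KO-labelled Trdv5, KO-labelled Trav15-dv6 and WT Trdv5 cells lay at 60.3, 59.5 and 58.7 CPM, and KO-labelled Trdv2-2, KO-labelled Trdv1 and WT Trdv2-2 cells at 54.7, 44.9 and 41.3 CPM. In Trdv4 cells the libraries differed by a log2 ratio of 0.98 (0.36 to 1.57), from 32 KO-labelled and 104 WT UMIs. After thinning 7.81% of WT and 9.73% of KO-labelled cells had a Gata3 UMI, and without thinning 12.1% and 16.8%. In cells of another type without T cell UMIs it was read in 1 of 56 in WT and 0 of 30 in KO-labelled. The latter allows a share of up to 11.6%.

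Il4 (ENSMUSG00000000869, chromosome 11, 53602982 to 53618669, minus strand, protein-coding) was read in the KO-labelled library alone. There were 0 UMIs in 2505 WT cells, which allows a share of up to 0.147%, and 39 UMIs in 36 KO-labelled cells, or 0.543% (0.380 to 0.751). Against the floor of 3 UMIs over the WT library, the KO-labelled level was higher by a log2 ratio of at least 2.17. With the counting error of the 39 UMIs this bound ran from 1.68 to 2.62. Of the Il4 UMIs in the KO-labelled library, 14 came from Trav15-dv6 cells, 15 from cells with no UMI of the group genes and 5 from cells with several. Trdv4 and Trdv5 cells gave 2 each, Trdv1 cells 1 and Trdv2-2 cells 0. The 49 Trav15-dv6 cells of the WT library had 0, which allows a share of up to 7.25%. Among KO-labelled Trav15-dv6 cells 1.08% (0.543 to 1.93) had an Il4 UMI. At this depth a difference between the libraries in Trav15-dv6 cells could not be detected.

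Il13 (ENSMUSG00000020383, chromosome 11, 53631324 to 53634702, minus strand, protein-coding) lies 12654 bases from Il4 and was rarer still. It had 20 UMIs in 7 KO-labelled cells and 0 in WT, of which 10 UMIs in 3 cells came from Trav15-dv6 cells and 4 UMIs in 1 cell from Trdv5 cells. Against the same floor its level was higher by a log2 ratio of at least 1.21, a bound that ran from 0.50 to 1.83 with counting error. It had fewer than 30 UMIs, so it was not counted among the calls, and 1 cell held 7 of its UMIs. In thinned cells 0.241% of KO-labelled cells had an Il4 UMI and 0.0689% an Il13 UMI.

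The cells that carried these cytokine transcripts were described one gene at a time. All 36 Il4 cells had T cell marker UMIs, 29 had Zbtb16, 15 had Gata3, 28 had Cxcr6, 27 had Icos and 23 had Tcrg-V1 UMIs. Of all KO-labelled cells 35.4% had Zbtb16, 16.8% Gata3, 31.3% Cxcr6 and 41.2% Icos UMIs, and 37.9% to 54.2% by group had Tcrg-V1 UMIs. After thinning, Zbtb16 was read in 7 of 14 Il4 cells (23.0% to 77.0%) and in 23.5% of cells without Il4. Of the 36 Il4 cells, 5 also had Ifng UMIs, 1 Il13 and 2 Areg, and 4 had UMIs of neither Cxcr6 nor Icos. All 7 Il13 cells had T cell marker and Icos UMIs, 5 had Cxcr6, 5 Zbtb16, 4 Gata3, 5 Tcrg-V1, 3 Il1rl1 and 2 Il17rb UMIs. Markers of group 2 innate lymphoid cells (ILC2, Il1rl1, Ptgdr2, Il5, Il17rb and Arg1) had 76 WT and 146 KO-labelled UMIs, or 8.47 and 5.64 CPM. Arg1 gave 59 of the WT and Il17rb 70 of the KO-labelled UMIs, and Il5 was at 0 in WT. At least 2 of the ILC2 markers were read in 2 of the 7 Il13 cells, which held 8 of the 20 UMIs, and in 0 of the 36 Il4 cells. Basophil and mast cell markers had 5 and 23 UMIs, or 0.557 and 0.888 CPM, with Mcpt8, Ms4a2 and Fcer1a at 0 in both libraries. The part of ILC2 in the Il13 result was not tested.

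Areg (ENSMUSG00000029378, chromosome 5, 91139599 to 91148432, plus strand, protein-coding) was higher in WT, unlike the other 4 genes. It had 830 UMIs or 92.5 CPM (86.3 to 99.0) in 182 WT cells and 619 UMIs or 23.9 CPM (22.0 to 25.9) in 194 KO-labelled cells. The KO-labelled level was lower, at a log2 ratio of -1.95 (-2.11 to -1.80). Thinned shares were 6.78% (5.74 to 7.93) in WT and 1.79% (1.47 to 2.17) in KO-labelled cells, against 7.27% and 2.92% without thinning. In cells of another type without T cell UMIs it was read in 1 of 56 and 1 of 30. Over all cells 2.94% of genes were called higher and 7.09% lower in the KO-labelled library. Of the 4 members with at least 30 UMIs 1, Il4, was higher and 1, Areg, lower. Il4 reached 30 UMIs through the KO-labelled library alone, so it could be called in that direction only. Its call is therefore not weighed against the share of all genes. The Il4 call was not kept in thinned cells, where the bound was 0.77 from 14 UMIs, nor in cells that had Xist UMIs but none of Y-linked genes, where it was 0.64 from 21 UMIs.

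A few cells held much of the Areg signal. The 10 cells with most Areg UMIs gave 35.8% of those in WT and 42.5% of those in the KO-labelled library, where single cells reached 59 and 48 UMIs. WT Trdv4 cells were highest, at 193 CPM (177 to 210) from 100 of 732 cells. KO-labelled Trdv4 cells were at 117 CPM (86.6 to 154), but their 50 UMIs came from 3 of 109 cells, 1 of which held 39, and the level without that cell was 26.0 CPM. WT Trdv5 cells were at 45.0 CPM, WT Trdv2-2 cells at 35.2, KO-labelled Trdv2-2 cells at 32.3 and KO-labelled Trav15-dv6 cells at 29.4, and neighbours among these 4 did not differ beyond counting error. KO-labelled Trdv1 and Trdv5 cells were lowest, at 13.0 and 11.1 CPM.

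Within groups the Areg ratio, KO-labelled over WT, was -2.03 in Trdv5 cells and -0.12 (-0.65 to 0.43) in Trdv2-2 cells, where the interval held 0. In Trdv4 cells it was -0.72 (-1.17 to -0.30), with the cell of 39 UMIs included. Without the Trdv4 cell with most Areg UMIs in each library, Trdv4 cells were at 26.0 CPM in the KO-labelled and 171 CPM in the WT library. Of thinned Trdv4 cells, 3 of 100 KO-labelled ones had an Areg UMI, against 12.8% in WT. In Trav15-dv6 cells, with 2 UMIs in WT, the Areg ratio was 1.54 (-0.34 to 4.60). Within the WT library Trdv4 cells were above the other single-delta cells by 2.33 (2.03 to 2.64), rank 108 of 9118. Areg was highest in the cells with most stress transcripts. In 3 equal parts of the cells of each library ranked on Fos, Jun and heat shock genes, Areg was at 59.9, 58.9 and 165 CPM in WT and at 19.6, 21.0 and 31.5 CPM in KO-labelled cells. These parts were not matched between libraries, with stress genes at 192 CPM in the lowest part of WT and 147 CPM in that of KO-labelled cells. The part of stress in the Areg difference was not tested.

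Sequence upstream of the cytokine genes is shown because Il4 and Il13 are neighbours that were read in the KO-labelled library alone, while Areg was read in both. Windows of 250 bases before and 50 bases from the start, from RefSeq on GRCm38.p6, were held for 4 of the 5 genes, and Zbtb16 was the one without. The letters that GATA factors bind (AGATAA or AGATAG, likewise TGATAA or TGATAG) were searched on both strands, as were the cyclic AMP response element TGACGTCA and the letters TATAAA. Such GATA forms were found in 29.8% of 32851 promoters, TGACGTCA in 1.79% and TATAAA in 13.6%. Capitals mark a GATA form in Il4 (TGATAA, positions 15 to 20 from the start) and in Il13 (AGATAA, positions -81 to -76), and TGACGTCA in Areg (positions -61 to -54).
Il4, chr11:53618616-53618915, minus strand: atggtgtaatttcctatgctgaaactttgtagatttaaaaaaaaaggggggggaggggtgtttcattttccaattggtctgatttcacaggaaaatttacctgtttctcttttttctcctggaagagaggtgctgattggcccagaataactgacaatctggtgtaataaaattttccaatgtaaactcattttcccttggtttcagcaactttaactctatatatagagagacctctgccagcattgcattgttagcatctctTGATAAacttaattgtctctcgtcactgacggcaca
Il13, chr11:53634653-53634952, minus strand: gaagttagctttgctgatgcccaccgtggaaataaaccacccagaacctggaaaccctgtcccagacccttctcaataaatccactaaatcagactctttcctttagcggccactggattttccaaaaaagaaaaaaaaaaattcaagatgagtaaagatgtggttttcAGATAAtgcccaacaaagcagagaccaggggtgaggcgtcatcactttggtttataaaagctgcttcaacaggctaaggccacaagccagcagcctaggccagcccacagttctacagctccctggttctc
Areg, chr5:91139349-91139648, plus strand: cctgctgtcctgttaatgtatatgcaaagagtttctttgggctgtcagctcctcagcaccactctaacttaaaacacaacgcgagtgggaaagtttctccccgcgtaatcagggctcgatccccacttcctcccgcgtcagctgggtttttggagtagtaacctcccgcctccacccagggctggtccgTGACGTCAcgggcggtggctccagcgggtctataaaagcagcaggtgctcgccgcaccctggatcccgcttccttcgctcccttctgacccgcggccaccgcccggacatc
The Gata3 window and that of another Il4 start held TGATAG on the gene strand, at positions 37 to 42 and -80 to -75, and no GATA form overlapped another of these motifs. Areg and Il13 also had TATAAA, Il13 on both strands. A match of letters is a description and not a bound site.

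Cells of the KO-labelled library with Trav15-dv6 UMIs were compared with its other single-delta cells, because these genes encode the Vδ6 chains of PLZF-positive γδ T cells. Zbtb16 was at 245 and 168 CPM, a log2 ratio of 0.54 (0.42 to 0.66), rank 129 of 8214 genes with at least 100 UMIs. Il4 had 14 and 5 UMIs, at 2.46 (0.90 to 4.28), and Il13 10 and 5 UMIs, at 1.97 (0.29 to 3.87). Of these 10 Il13 UMIs 7 lay in 1 cell, which had 2 ILC2 markers. Group by group, neither cytokine was particular to Trav15-dv6 cells. Il4 was at 3.29 CPM there and at 4.67 CPM in Trdv4 cells, from 2 UMIs. Il13 was at 2.35 CPM there and at 2.21 CPM in Trdv5 cells, from 1 cell. Both ratios had intervals that held 0. Without cells with markers of another type Il13 was at 0.57 (-2.20 to 3.14), from 3 and 4 UMIs, and without the deepest 5% of cells at 1.47 (-0.40 to 3.47). In thinned cells, with delta groups read again from the UMIs left, the intervals of both cytokines held 0. There were then 5 and 2 UMIs for Il4 and 4 and 3 for Il13. With groups from all UMIs, Il4 was read in 7 and Il13 in 2 of 938 thinned Trav15-dv6 cells. Among all 2912 thinned single-delta cells, Il4 was read in 9 and Il13 in 3. The ratio of these thinned shares was not tested. Gata3, at 0.14 (-0.09 to 0.37), and Areg, at 0.17 (-0.16 to 0.49), had intervals that held 0. Of all genes 0.722% were called higher and 0.597% lower, and 0 of the 3 members with at least 30 UMIs were called. Without the cell with most UMIs in each group, Areg was at -0.24.

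The genes at the ends of this comparison were of other kinds. Those highest in Trav15-dv6 cells were H2-Eb1 (2.02), H2-Aa (1.88) and Cd74 (1.38), which serve antigen presentation by MHC class II, with Apoe (1.71) and Il17a (1.46). The lowest were Scgb1a1 (-1.96), a secretory protein of airway epithelium, Art4 (-1.24), Zfp566 (-1.03), Gm34794 (-0.99) and Cd8b1 (-0.99). Beside these, Trav15-dv6 and other single-delta cells had myeloid markers at 188 and 190 CPM, B cell markers at 18.1 and 27.7 CPM, epithelial markers at 18.3 and 45.0 CPM and markers of alpha-beta T cells (Trac, Trbc1, Trbc2, Cd4 and Cd8b1) at 1204 and 1273 CPM. Their part in these values was not tested.

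Splitting the 1014 Trav15-dv6 cells by gene pair, a split chosen after the values had been seen, gave groups that differed for Zbtb16. It was at 306 CPM (283 to 331) in the 490 cells with Trav15-1-dv6-1 or Trav15d-1-dv6d-1 alone and at 168 CPM (149 to 188) in the 454 cells with Trav15-2-dv6-2 or Trav15d-2-dv6d-2 alone, a log2 ratio of 0.87 (0.67 to 1.07). The pair was read again from the UMIs left after thinning, which gave 330 and 331 cells. Their shares with a Zbtb16 UMI were 40.0% (34.7 to 45.5) and 15.7% (12.0 to 20.1). Cells of the first pair were above the other single-delta cells by 0.86 (0.72 to 0.995), whereas cells of the second were at -0.01 (-0.19 to 0.17). Another 70 cells had UMIs of both pairs and were at 280 CPM (229 to 339).

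The remaining genes were uneven between the pairs. Gata3 was at 0.01 (-0.37 to 0.40). Il4 had 10 and 1 UMIs, at 3.11 (0.29 to 8.55), and Il13 10 and 0 UMIs. Areg was at 46.6 and 10.6 CPM, at 2.14 (1.42 to 2.93), but 48 of its 97 UMIs in the first pair lay in 1 cell. Its level without that cell was 23.6 CPM. Of the 330 and 331 thinned cells 1.52% and 1.51% had an Areg UMI. Between the pairs 1.17% of genes were called higher and 1.18% lower, and of 3 members with enough UMIs Areg was called higher. In WT the pairs had 27 and 22 cells, and their Zbtb16 ratio of 0.16 (-1.55 to 1.97) was too wide to set beside this one.

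Transcripts of Cxcr6 and Icos also differed between the pairs. UMIs of both were read in 39.4% of first-pair and 18.9% of second-pair cells, and in 30.6% and 13.6% of the 330 and 331 thinned cells. Among cells with both, Zbtb16 was at 436 and 391 CPM, a ratio of 0.16 (-0.10 to 0.43). Among cells with neither it was at 166 (136 to 200) and 48.1 CPM (35.0 to 64.6), a ratio of 1.78 (1.27 to 2.32). The Zbtb16 ratio was thus larger in cells without Cxcr6 and Icos UMIs than in cells with both, a difference between intervals that do not overlap and that was not tested.

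**Figure D2:**
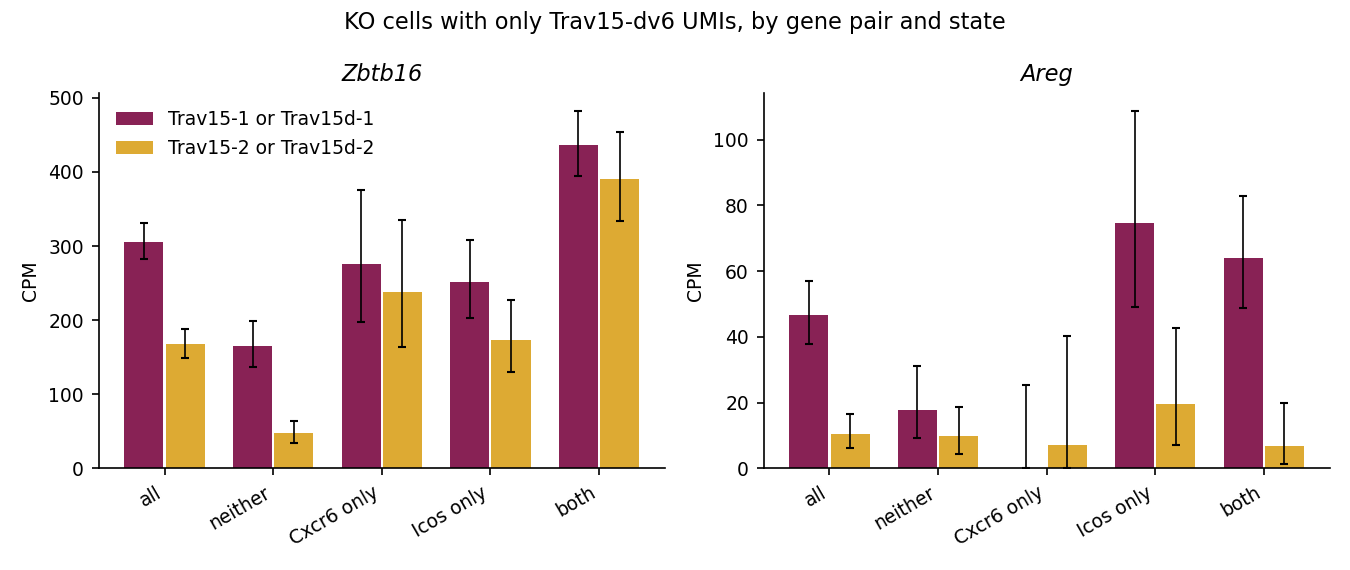
Zbtb16 and Areg in CPM (y axes) in KO cells with only Trav15-dv6 UMIs, for all cells and by Cxcr6 and Icos UMIs (x axis), with 1 bar per gene pair and exact Poisson intervals. The Zbtb16 bars are at 306 and 168 CPM for all cells, lie apart in cells with neither UMI and overlap in cells with both, and in the first pair 1 cell gave 48 of the Areg UMIs behind the bars for all cells and for cells with both.

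Zbtb16 was higher in cells with a Cxcr6 or an Icos UMI in both libraries. In the KO-labelled library it was at 382 CPM in 2076 cells with and 107 CPM in 4558 cells without a Cxcr6 UMI, a log2 ratio of 1.84 (1.75 to 1.92). For Icos it was at 334 CPM in 2732 and 94.7 CPM in 3902 cells, a ratio of 1.82 (1.73 to 1.91). In WT the ratios were 1.75 for Cxcr6 and 1.21 (1.05 to 1.39) for Icos. Cells with such UMIs were deeper, with KO-labelled medians of 4182.5 against 3259 UMIs for Cxcr6, but after thinning 47.2% and 15.4% had a Zbtb16 UMI. Levels rose in steps from cells with neither UMI (58.4 CPM in WT and 77.9 in KO-labelled) to cells with both (273 and 422), by a log2 ratio of 2.22 (1.99 to 2.46) and 2.44 (2.33 to 2.54). Cells with Cxcr6 alone were at 209 and 207 CPM, and cells with Icos alone at 111 and 182 CPM.

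**Figure D3:**
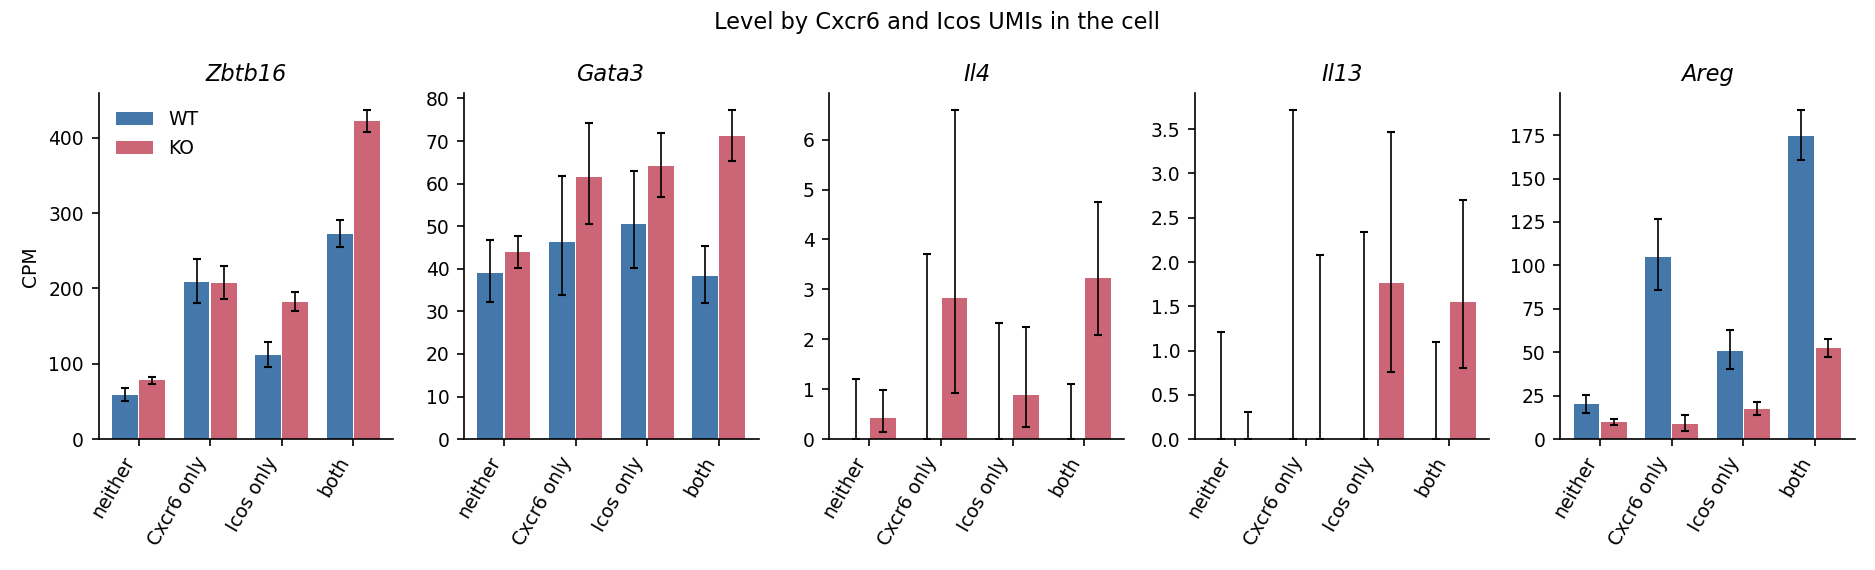
Level of each gene in CPM (y axes, which differ between panels) in cells with UMIs of neither Cxcr6 nor Icos, of 1 of them or of both (x axis), by library, as bars with exact Poisson intervals. Zbtb16 is lowest with neither and highest with both in each library, at 273 CPM in WT and 422 CPM in KO, while Gata3 in WT shows no such order.

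Within WT Trdv4 cells Zbtb16 differed by 0.26 (-0.06 to 0.59) for Cxcr6 and by 0.00 (-0.25 to 0.26) for Icos, and both intervals held 0. Within each KO-labelled group the ratio lay between 1.18 and 2.31 for Cxcr6 and between 1.53 and 2.70 for Icos, within WT Trdv2-2 cells at 1.54 and 1.31, and within WT Trdv5 cells at 1.30 and 0.74. In the 49 WT Trav15-dv6 cells it was at 1.11 and 1.31, with intervals that held 0. Of WT Trdv4 cells 106 had no Cxcr6 UMI and 157 no Icos UMI.

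**Figure D4:**
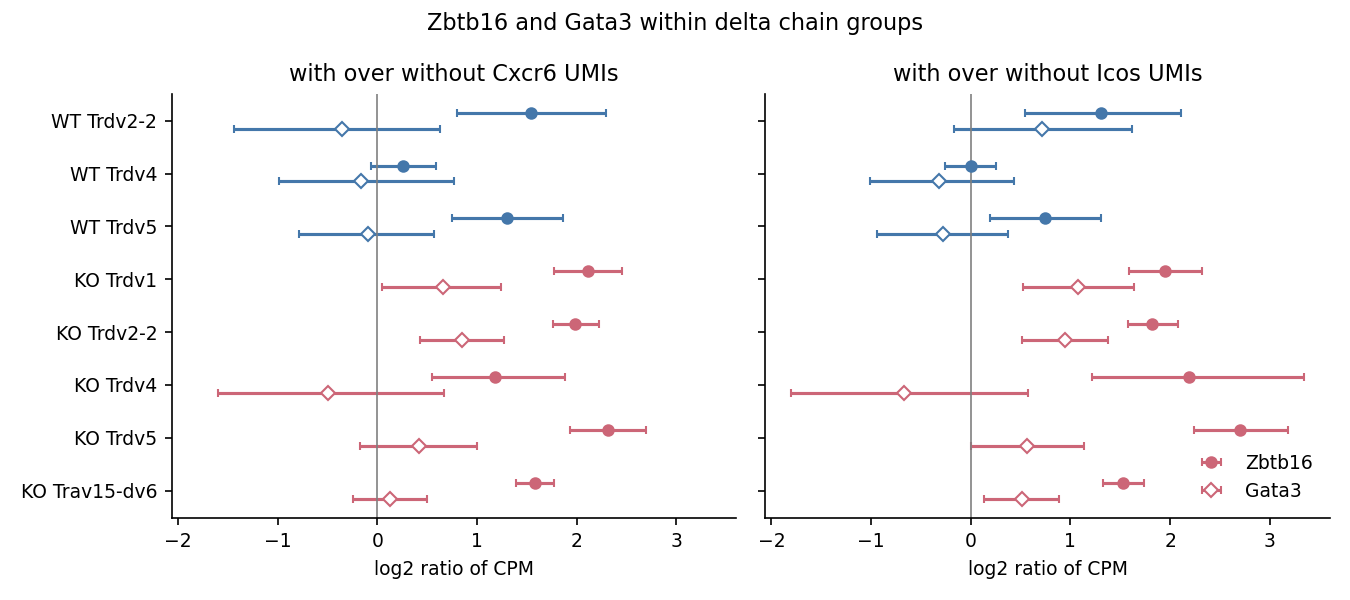
Log2 ratio of CPM (x axis) of cells with over cells without Cxcr6 (left) or Icos UMIs (right) in each delta chain group and library (y axis), with exact intervals and filled circles for Zbtb16 and open diamonds for Gata3. Zbtb16 is lowest in WT Trdv4, at 0.26 and 0.00 with intervals that hold 0, and lies above 0 in every other row.

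Gata3 moved less with these receptors. In the KO-labelled library it was at 69.3 CPM with and 49.5 CPM without a Cxcr6 UMI, a ratio of 0.49 (0.34 to 0.64), and at 0.57 (0.42 to 0.72) for Icos. In WT the ratios were -0.10 (-0.40 to 0.20) and 0.05 (-0.25 to 0.35), so that no difference was seen there beyond counting error. Within KO-labelled Trav15-dv6 cells it was at 0.13 (-0.24 to 0.50) for Cxcr6 and at 0.51 (0.14 to 0.89) for Icos. In the other KO-labelled groups it lay between -0.49 (Trdv4) and 0.85 (Trdv2-2) for Cxcr6 and between -0.67 (Trdv4) and 1.08 (Trdv1) for Icos.

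Without thinning, most Il4 and Il13 UMIs lay in cells with UMIs of these receptors. Of the Il4 UMIs 30 came from cells with and 9 from cells without Cxcr6, a ratio of 2.52 (1.41 to 3.78), and 29 and 10 for Icos, at 1.68 (0.60 to 2.88). In thinned cells Il4 had 7 and 7 UMIs for Cxcr6, at 1.53 (-0.21 to 3.27). Cxcr6 was then read in 7 of 14 Il4 cells, in 2 of 4 Il13 cells and in 25.6% of cells without Il4. Of the Il13 UMIs 12 and 8 divided by Cxcr6, at 1.37 (-0.05 to 2.86), and 20 and 0 by Icos, at least 2.88 against the floor. Without cells that had markers of another type, of which 2 held 8 of the 20 Il13 UMIs, Il13 had 11 and 1 UMIs for Cxcr6. Within KO-labelled Trav15-dv6 cells the Il13 ratio for Cxcr6 was negative, and the cell with 7 Il13 UMIs had 0 of Cxcr6. Areg in KO-labelled cells was at 1.89 (1.64 to 2.14) for Cxcr6 and 2.03 (1.75 to 2.32) for Icos, and in WT cells at 2.38 and 1.72. Within WT Trdv4 cells Areg was at 0.21 (-0.19 to 0.63) for Cxcr6 but at 1.22 (0.77 to 1.69) for Icos.

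The members called higher were read against all genes. In the KO-labelled library 5.69% of genes were called higher and 3.72% lower with Cxcr6, and 5.18% and 2.56% with Icos, and Zbtb16, Il4 and Areg, 3 of the 4 members with at least 30 UMIs, were higher in both. Il4 reached 30 UMIs mostly through the cells with these receptors, so its calls are not weighed against these shares. In WT 4.71% were higher and 8.2% lower with Cxcr6, and 2.86% and 5.5% with Icos, and Zbtb16 and Areg, 2 of 3 members, were higher in both.

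In thinned cells Zbtb16 and the other genes were also set side by side within cells. Of 1366 KO-labelled cells with a Zbtb16 UMI 51.5% had Cxcr6 and 60.9% Icos, against 17.7% and 25.5% of 4440 cells without. In WT these shares were 68.8% and 66.0%, against 34.0% and 36.7%. Gata3 was read in 11.3% (9.71 to 13.1) of KO-labelled cells with and 9.23% (8.40 to 10.1) of cells without Zbtb16, and in 9.09% and 7.46% in WT, with overlapping intervals in both. Il17a, the cytokine of type 3 γδ T cells, was read in 3.88% and 0.923% of KO-labelled and in 27.9% and 14.4% of WT cells.

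The genes most raised in thinned KO-labelled cells with a Zbtb16 UMI were Calca (2.73), Sdc1 (2.24), Socs2 (2.09), Serpinb1a (1.99) and Il23r (1.99), a receptor chain for interleukin-23. They were followed by the chemokine receptors Ccr2 (1.97), Cxcr6 (1.88) and Ccr4 (1.87), with Cd40lg (1.91) and Bcl2a1d (1.86). For Gata3 the values were far smaller, from Bcl2a1d (0.82) and Ccr2 (0.71) to Nr4a1 (0.63). Between them lay Gm19585, Bhlhe40, Tmtc2, Atf3, BC004004, Smad3 and Jak2. Across the 8 combinations of delta chain group and library, which share 2 libraries, the levels most like Zbtb16 among 7466 genes were those of Itgb7 (Pearson's r = 0.980), an integrin chain, Tomm6, Esyt1, Ostc and Thy1 (0.959). Those most like Gata3 were Pdha1 (0.973), Nup133, Rint1, Kif1bp and Shld1, and those most like Areg were Cyth4 (0.989), Atp6v0e, Mcrip2, Calr and Bsg. Zbtb16 had r = 0.324 with Gata3 and 0.549 with Areg, all as descriptions over 8 points.

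Genes of the surrounding pathways were then counted, from lists in which the members are included. Between the libraries 0 of 22 regulators were higher and 4 lower in KO-labelled cells, with a median of -0.14 against 0.02 over all genes tested. For this and the next lists, 2.94% of all genes were higher and 7.09% lower. The lower regulators were Nfil3 (-1.80), Egr1 (-1.55), Bhlhe40 (-1.44) and Maf (-1.19). Of 6 genes of the SLAM and SAP pathway, which natural killer T cells need to develop, 2 were higher, Slamf6 (1.35) and Sh2d1a (1.09), and 0 lower. Of 8 receptors of type 2 signals 3 were higher, the interleukin-25 receptor Il17rb (3.60), the chemokine receptor Ccr8 (2.31) and the interleukin-33 receptor Il1rl1 (1.43), and 0 lower. Il17rb had 70 KO-labelled and 2 WT UMIs, and Il1rl1 39 and 5. Both genes passed the UMI minimum for a call through the KO-labelled library, and both are also ILC2 markers. The calls of Il17rb and Il1rl1 are therefore not weighed against the share of all genes. A single KO-labelled cell with 3 ILC2 markers held 8 of the 39 Il1rl1 UMIs. Of 9 innate-like and effector markers 0 were higher and 1 lower, the adhesion receptor Cd44 (-1.25). Of 3 cytokine genes with enough UMIs Csf2 was at 0.02, beside Il4 and Areg. Il5 had 14 UMIs in 2 KO-labelled cells, 13 of them in the cell with 3 ILC2 markers, and 0 in WT.

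The same lists were counted by Cxcr6 and Icos UMIs, where 5.69% of all genes were higher and 3.72% lower with Cxcr6, and 5.18% and 2.56% with Icos. In the KO-labelled library 8 of 22 regulators were higher with Cxcr6, led by Maf (2.41), Rora (1.98) and Zbtb16 (1.84), and 2 were lower, Id3 (-1.14) and Stat5a (-1.08), with a median of 0.07 against -0.05 over all genes. All 3 cytokine genes were higher, as were 4 of 8 receptors, Ccr8 (3.17), Ccr4 (2.41), Il17rb (2.10) and Il1rl1 (1.46). Slamf1 (1.82) was the SLAM pathway gene that was higher, 1 of 6. Of 8 effector markers 3 were higher, Icos (3.09), Cd44 (2.01) and Il18r1 (1.96), and 0 lower. With Icos, 6 regulators were higher and 1 lower, and 3 of 8 receptors were higher, with Il17rb at 3.31.

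The lists were last counted in WT Trdv4 cells, where 5.47% of all genes were higher and 6.79% lower, and in KO-labelled Trav15-dv6 cells, where 0.722% were higher and 0.597% lower. In WT Trdv4 cells 4 of 18 regulators were higher, Zbtb16, Irf4 (1.92), Bhlhe40 (1.75) and Rora (1.55), and Id3 (-3.13) and Stat5a (-1.48) were lower. There 2 of 6 SLAM pathway genes were lower, Slamf6 (-4.18) and Sh2d1a (-2.47), and of 8 effector markers 3 were higher, Cxcr6 (2.59), Icos (1.80) and Cd44 (1.69), and 2 lower, Klrb1c (-1.14) and Ifng (-1.05). In KO-labelled Trav15-dv6 cells 0 of 21 regulators and 0 of 6 SLAM pathway genes were called in either direction, 1 of 7 receptors was higher, Ccr8 (1.003), and 1 of 9 effector markers, Cd4 (2.27). Each of these was measured against other single-delta cells of its own library, and the difference between them was not tested.

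**Figure D5:**
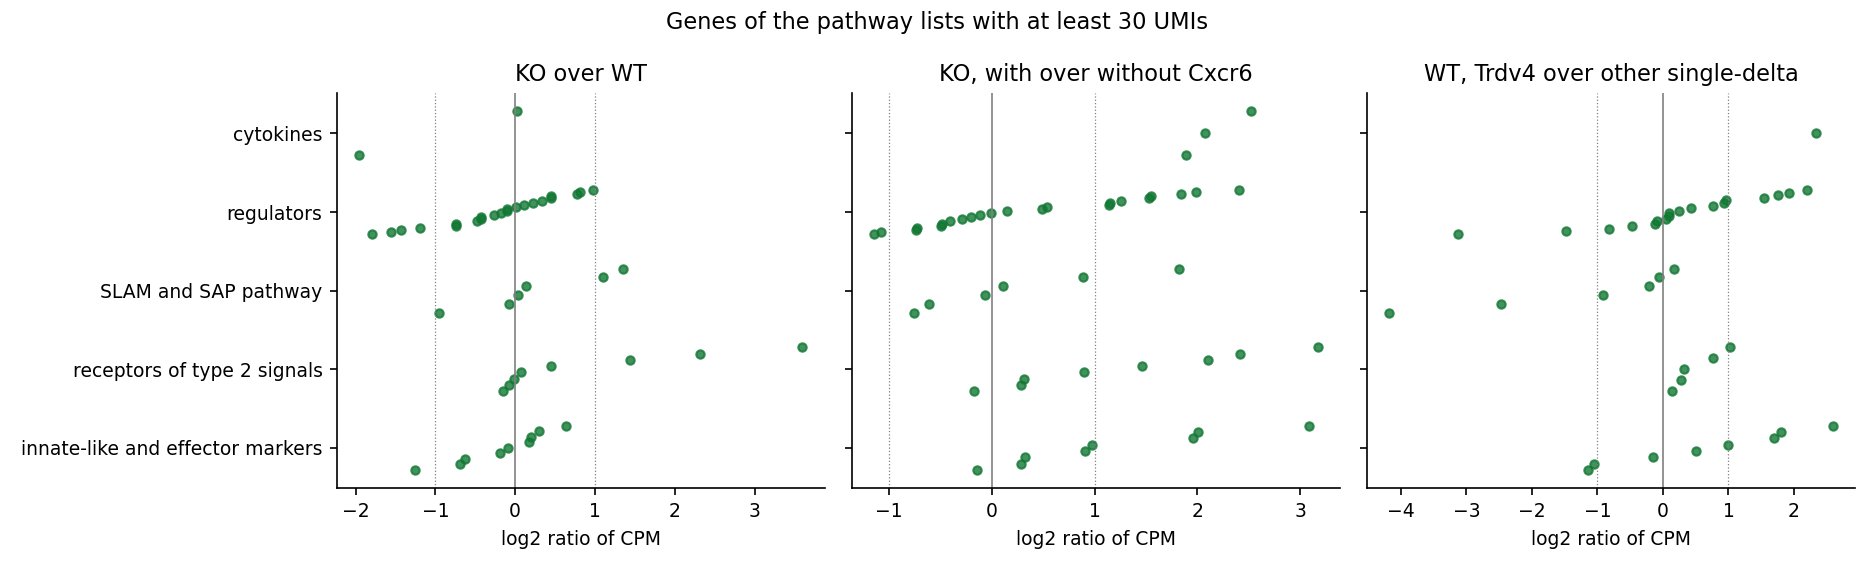
Log2 ratio of CPM (x axes) of each gene with at least 30 UMIs, 1 point per gene, in 5 lists (y axis), for KO over WT, for KO cells with over without Cxcr6 UMIs and for WT Trdv4 over other single-delta cells. Dotted lines mark -1 and 1, and Il4 in KO over WT, a lower bound of 2.17, is not plotted. Receptors of type 2 signals reach 3.60 in KO over WT (Il17rb, from 70 KO and 2 WT UMIs). In WT Trdv4 cells 2 SLAM pathway genes fall below -2.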

How the data were processed

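Single-cell transcripts were measured in 2 libraries of sorted lung γδ T cells, 1 per group. The deposited files hold UMI counts by gene and barcode. Cell Ranger and the mm10 (GRCm38) genome were used by the authors for them. The submitters' processing notes and the file headers name versions 7.0 and 7.0.0 of it, and the methods of the study an earlier one. The methods also name a V(D)J kit where the labels give a 3′ protocol. The matrices hold called cells and are not normalised. Whether intronic reads were counted is not given in the sources used here.

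Cells were kept with over 200 and under 4000 genes and under 10% mitochondrial UMIs, and doublets were not called. This left 2505 of 2520 WT barcodes (8971636 UMIs) and 6634 of 6688 KO-labelled barcodes (25908306 UMIs). UMIs were summed over cells and given as CPM with exact Poisson intervals, shares with Clopper-Pearson intervals, and ratios of CPM with exact conditional intervals. A side at 0 was set to a floor of 3 UMIs over its cells. Shares were compared after thinning each cell to 2000 UMIs, so 380 shallower WT cells and 828 KO-labelled ones dropped out. Delta groups of thinned shares came from all UMIs of a cell, and Cxcr6 and Icos states and gene pairs from the UMIs left. Ratios in thinned cells used groups and states from the UMIs left. Calls needed a log2 ratio of at least 1 or at most -1 and 30 UMIs over both sides. The ratio step was tested on simulated counts.

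The members, groups and lists were chosen with earlier results of these data known. Named genes were the members, genes that define groups, up to 4 genes per pathway list with the highest or lowest ratios, the 5 genes most like each member across groups with at least 50 cells and 200 UMIs (log2 of CPM plus 10), the 10 highest in cells with Zbtb16 or Gata3 among genes read in at least 10% of those cells, and the 5 highest and lowest in Trav15-dv6 cells. In the list of innate-like and effector markers 1 gene is not reported here. Genes of cell type lists and genes read in Il4 or Il13 cells were named outside this rule, as was Il17a beside Zbtb16. Python 3.11.15 was used with numpy 2.4.6, scipy 1.17.1, pandas 2.3.3 and matplotlib 3.10.9.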

Additional observations from a re-analysis of the deposited data

Results flagged for a closer look

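The same contrast had opposite signs in the libraries, with both intervals away from 0, for 2 genes. Neither difference between the libraries was tested. Zbtb16 in Trav15-dv6 cells against other single-delta cells was at a log2 ratio of -1.46 (-2.34 to -0.71) in WT, from 49 cells, and at 0.54 (0.42 to 0.66) in the KO-labelled library. The WT cells outside Trav15-dv6 include the 732 Trdv4 cells, which had the highest Zbtb16 level of that library. Areg in Trdv2-2 cells against other single-delta cells was at -1.93 (-2.43 to -1.47) in WT and at 0.35 (0.02 to 0.68) in the KO-labelled library, where 1 of the Trdv2-2 cells held 26 of 115 UMIs.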

How the results depend on the processing

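No paired analysis was possible because the groups hold 1 library apiece. Of 207 values that alternatives gave for 20 ratios, 155 stayed within the interval of the reported ratio, 51 moved out of it and 1 called ratio changed sign. The splits by Trav15-dv6 gene pair and the removal of the cell with most UMIs of a gene were chosen after seeing the data. The cause of each change was not tested. KO-labelled over WT within delta chain groups, Zbtb16 was at 1.36 (Trdv1, a bound), 1.74 (Trdv2-2), 0.16 (Trdv4), 0.92 (Trdv5) and 1.80 (Trav15-dv6). Within the same groups Gata3 was at -1.001 (Trdv1), 0.98 (Trdv4), 0.038 (Trdv5) and 0.10 (Trav15-dv6), and Il13 at a bound of 0.11 (Trdv5). Areg was there at -1.20 (Trdv1), -0.12 (Trdv2-2) and -0.72 (Trdv4), with the changed sign in Trav15-dv6 cells (1.54, from 2 WT UMIs). The Trdv1 values had intervals that held 0, for Gata3 -2.17 to 0.47 and for Areg -3.17 to 1.90. They rested on 6 WT Gata3 UMIs, 5 of them in 1 cell, and on 2 WT Areg UMIs. Between KO-labelled Tcrg-V1 and WT Tcrg-V4 or Tcrg-V6 cells Zbtb16 was at 0.13, Areg at -2.33 and Il4 at a bound of 1.50. With every cell weighted alike Zbtb16 was at 0.12 between libraries, 1.69 for Cxcr6 and 1.72 for Icos. In cells with Xist UMIs and without Y-linked ones the bounds were 0.64 (Il4) and 0.16 (Il13). In thinned cells the bounds were 0.77 (Il4) and 0.42 (Il13) and Areg was at -2.14 between libraries, Zbtb16 at 0.76 for Trav15-dv6 and 1.92 for Icos, and Areg at 1.33 for Cxcr6 and 2.32 for Icos. Without cells with markers of another type Il13 was at a bound of 0.42 between libraries, 4.23 for Cxcr6 and a bound of 2.14 for Icos. Without the deepest 5% of cells Areg was at -2.25 between libraries and -0.59 for Trav15-dv6.

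For Trav15-dv6 against other single-delta cells Areg was at 0.90 with at least 2 UMIs of the delta gene and -0.24 without the cell with most UMIs. With the first gene pair Zbtb16 was at 0.86 and Areg at 0.83, and with the second Zbtb16 at -0.0085, Il4 at -0.11 and Areg at -1.30. For Cxcr6 within KO-labelled Trav15-dv6 cells Zbtb16 was at 1.58, Gata3 at 0.13, Il13 at -1.51 and Areg at 0.83, and for Icos Zbtb16 was at 1.53 and Il13 at a bound of 1.63. In the WT library Gata3 was at -0.10 and Areg at 2.38 for Cxcr6, and Zbtb16 at 1.21, Gata3 at 0.048 and Areg at 1.72 for Icos. Alternatives without a row here left a gene at 0 or gave a bound on the far side of 0 (Il4 and Il13 between libraries in Trav15-dv6 cells, for example). With 39 Il4 and 20 Il13 UMIs, depth limits every statement on these genes to whether they were read, and cells at 0 are not shown to lack the transcript.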
